A study of Mus musculus with 12 samples.

Results

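Subunits of the proteasome, its activators, a regulator and its assembly chaperones are encoded by genes whose symbols begin with Psma, Psmb, Psmc, Psmd, Psme, Psmf and Psmg. These genes were followed in 4 mouse acute myeloid leukaemia lines that differ in their response to cytarabine (Ara-C). A gene was a member when its symbol began with one of these stems followed by a digit. Each was read from its brightest probe set that the platform annotation pairs with 1 symbol. The rule found 49 members among the 18193 genes measured. Of these, 47 encode proteasome proteins, a term that here includes its regulators and assembly chaperones. The other two match by symbol only: Psmc3ip, a meiotic recombination protein, and Psme3ip1, a protein that binds the activator subunit encoded by Psme3. Psme2 and Psme2b share a probe set with several symbols and are not analysed here.

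Total RNA of the 4 lines was hybridised to 12 one-colour expression arrays, 3 per line, lettered A, B and C. B117H and B140H are highly resistant to Ara-C, and each was derived from a sensitive parental line, B117P and B140P. All 4 lines come from leukaemias of BXH-2 mice, a strain with inherited murine leukaemia virus, and each group is a single line, so a resistant line and its parent stand for 1 derivation. The protocol text is the same for all 12 samples, namely treatment with growing doses of Ara-C, culture in ASM medium free of the drug, RNeasy Midi extraction, and MessageAmp III amplification with a biotin label. It therefore does not separate the resistant cells from the parental ones. The labels do not state whether the 3 arrays of a line are separate cultures, so the p-values speak of the spread among these samples alone, which may be technical.

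Values are log2(intensity + 1), and a change is the difference of 2 line means on that scale. A gene was called when its Benjamini-Hochberg adjusted p from limma, over 45037 probe sets, was under 0.05. Array medians lay between 118 and 131, and array B of B140H had the highest. Correlations between arrays were 0.988 to 0.997 within a line, 0.980 to 0.993 between a resistant line and its parent, and 0.954 to 0.967 between the B140 and B117 lineages. The summed intensity of 11 myeloid markers ran from 60724 to 63318 in B117H and 76043 to 89661 in B117P, and from 27686 to 29098 in B140H and 30933 to 32779 in B140P. The sum of 4 B-cell markers was 371 to 405 in B117H, 406 to 472 in B117P, 3372 to 4137 in B140H and 2108 to 2677 in B140P. The T-cell, erythroid, stromal, endothelial and epithelial sums stayed between 389 and 827 in all 4 lines. None of these values is at 0, since RMA gives dim probe sets a small positive value. In such bulk samples, fewer cells of a type and less RNA per cell cannot be told apart.

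The proteasome degrades proteins that carry ubiquitin chains. Its core particle (20S) is a barrel of outer alpha rings, which gate the entrance, and inner beta rings, in which Psmb5, Psmb6 and Psmb7 encode the cutting subunits. Interferon-inducible subunits, encoded by Psmb8, Psmb9 and Psmb10, can replace these to form the immunoproteasome, which blood cells carry at high levels and which shapes the peptides shown on MHC class I. The regulatory particle (19S) recognises and unfolds substrates with a ring of ATPases (Psmc) and non-ATPase subunits (Psmd). The Psme genes encode other activators that cap the barrel, Psmf1 encodes the regulator PI31, and the Psmg genes encode chaperones that assemble the core particle. Leukaemia cells, like other dividing cells, depend on this machine.

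Most of the machine was expressed brightly in all 4 lines. Of the 49 members, 40 (81.6%) had a mean log2 value above 11, as did 2252 of the 18193 genes (12.4%), each read from its brightest probe set. The line means of 36 members (73.5%) spanned less than 0.5 over the 4 lines, beside 70.6% of all genes and 60.2% of the genes above 11. The exceptions in brightness were Psma8, the germ-cell alpha subunit, at 5.79, 5.80, 5.90 and 5.84 in B117H, B117P, B140H and B140P, and Psmb11, the thymic beta subunit, at 6.22, 5.95, 5.93 and 5.93. The other members had line means between 9.59 and 13.81. The mean of the 47 proteasome genes on an array ran from 11.68 to 11.82 in B117H and 11.71 to 11.87 in B117P. It ran from 11.71 to 11.79 in B140H and 11.68 to 11.72 in B140P, so the groups of each pair overlapped.

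In B117H against B117P, 4 members were called: Psmb9 rose, and Psma2, Psmg1 and Psmg4 fell. Among all genes, 9.41% were called in this comparison, 4.73% upward and 4.68% downward, and the 4 members are 8.16% of 49. Among genes with a mean above 11, 3 of 39 proteasome genes were called in B117H, beside 292 of all 2252, and 3 of 39 in B140H, beside 214. The median change of the members was 0.04 and their median absolute change 0.10, beside -0.01 and 0.11 over all genes. In B140H against B140P, Psmb9, Psmg3 and Psmc3ip rose and Psma5 fell. That is again 4 of 49, beside 6.56% of all genes, 2.81% upward and 3.75% downward. The median change was 0.07 and the median absolute change 0.13, against 0.05 and 0.12 over all genes. Psmb9 alone was called in both resistant lines, and 32 members were called in none of the 4 comparisons made.

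**Figure D1:**
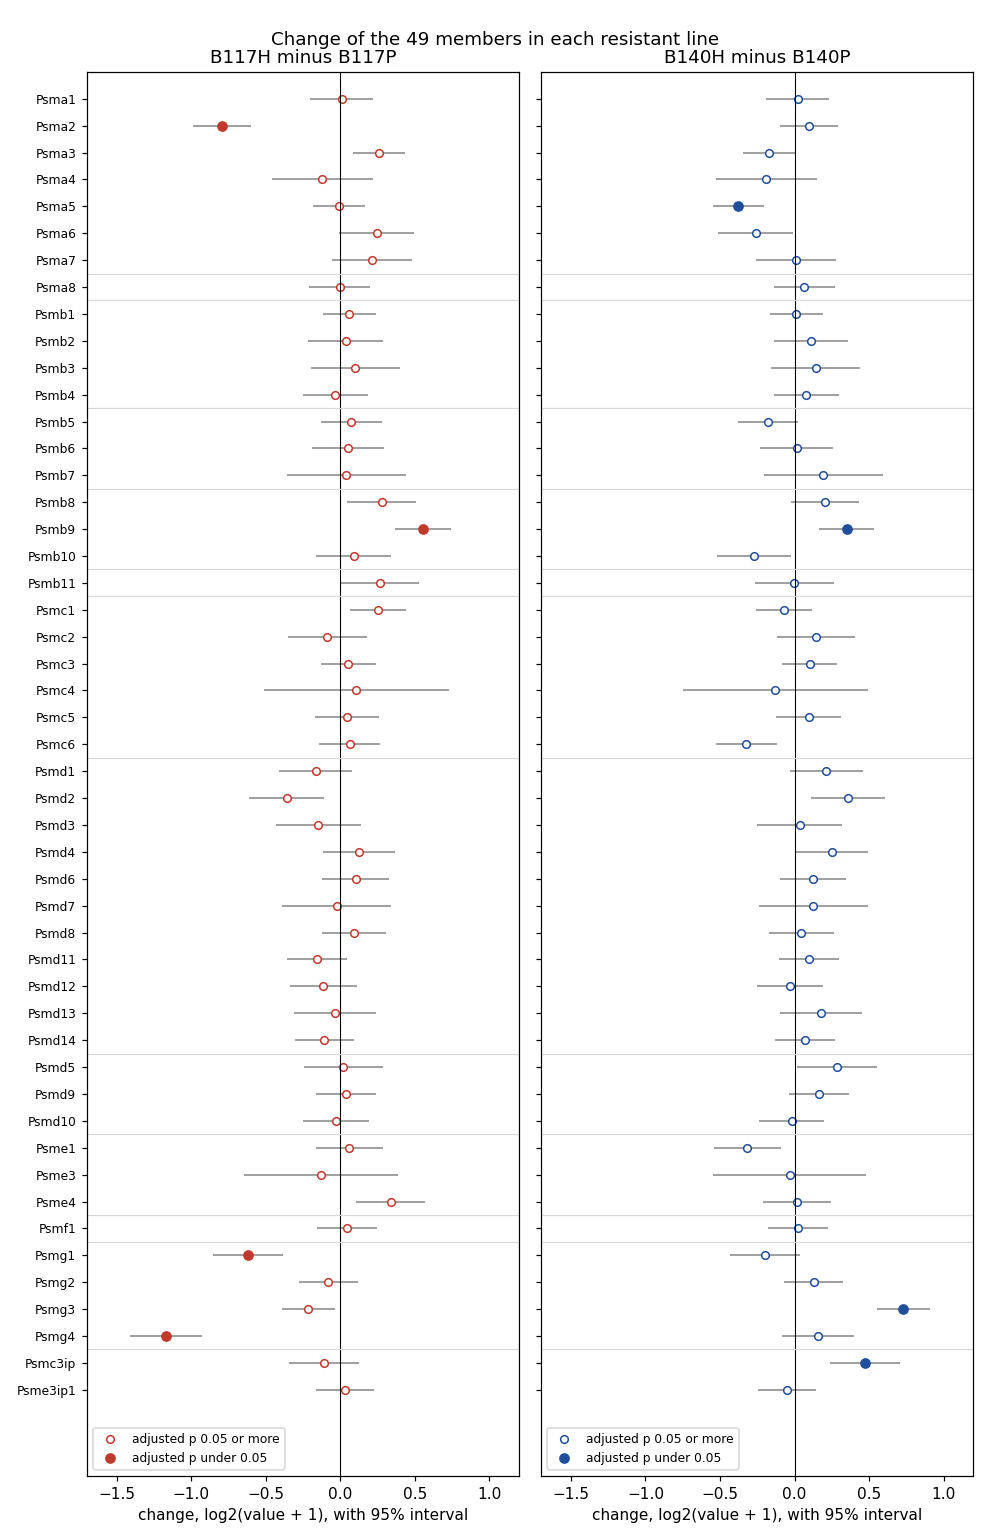
Change of each of the 49 members (rows, grouped by role and separated by grey lines) in B117H minus B117P (left) and B140H minus B140P (right), in log2(value + 1) units with the 95% interval of limma. Filled points are the 4 members called in each pair; most open points lie within 0.25 of 0.

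The inducible catalytic subunits were the catalytic group with a member called in both pairs. Psmb9, the inducible counterpart of Psmb6, measured 12.61, 12.66 and 12.60 on the B117H arrays, against 12.18, 11.98 and 12.05 on the B117P arrays. It measured 12.74, 12.81 and 12.72 in B140H, against 12.49, 12.38 and 12.35 in B140P. All resistant arrays lay above all parental arrays, also across the pairs. In limma the rise was 0.56 ± 0.09 (SE, n = 3 each; 1.47-fold, adjusted p = 0.00129) in B117H and 0.35 ± 0.09 (1.27-fold, adjusted p = 0.0365) in B140H. The second call was the less stable: it was lost in 15 of 25 alternative settings, among them the omission of any single array but A or B of B117P (adjusted p between 0.0532 and 0.152). The first was lost only in 2 of 25, without all B or all C arrays (adjusted p = 0.0569 and 0.0689). The difference between the rises was -0.21, with a 95% interval from -0.47 to 0.06 (adjusted p = 0.439).

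Psmb8, the inducible counterpart of Psmb5, lies beside Psmb9 on chromosome 17 with only Tap1 between them among measured genes. It had 13.31, 13.42 and 13.33 in B117H, against 13.27, 12.96 and 13.00 in B117P, and 13.45, 13.52 and 13.28 in B140H, against 13.24, 13.28 and 13.11 in B140P. The B117 groups did not overlap, while the B140 groups met at 13.28. Neither change passed the test, at 0.28 (95% interval 0.05 to 0.51, adjusted p = 0.185) and 0.20 (-0.02 to 0.43, adjusted p = 0.42). Psmb10, the inducible counterpart of Psmb7, had 11.31, 11.64 and 11.32 in B117H, against 11.43, 11.17 and 11.40 in B117P, and 10.85, 10.99 and 10.84 in B140H, against 11.06, 11.29 and 11.15 in B140P. The B117 groups overlapped and the B140 groups did not, and its changes of 0.09 and -0.27 were not called (adjusted p = 0.896 and 0.284).

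Psmb9 starts head to head with Tap1, a subunit of the transporter that carries proteasome products into the endoplasmic reticulum. Tap1 rose by 0.60 in B117H (adjusted p = 0.0126), and Tap2, the other transporter subunit and the next measured gene after Psmb8, rose by 0.82 (adjusted p = 0.00611). Neither was called in B140H, at 0.28 and 0.24. The Tap1 call was lost without array B or C of B117H or array A of B117P (adjusted p between 0.0544 and 0.0676), and both calls were lost without all B or all C arrays. With the mean of its probe sets in place of the brightest, the change of Tap1 in B117H was 0.11 (adjusted p = 0.838). The 225 bases between the 2 start sites are shown because both genes are read from them (RefSeq, GRCm38.p6, chr17:34187331-34187555, minus strand, 5′ to 3′ and ending at the base before the Psmb9 start). The capitals mark a CCAAT box read on the opposite strand, 8 to 4 bases before that start.

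Psmb9: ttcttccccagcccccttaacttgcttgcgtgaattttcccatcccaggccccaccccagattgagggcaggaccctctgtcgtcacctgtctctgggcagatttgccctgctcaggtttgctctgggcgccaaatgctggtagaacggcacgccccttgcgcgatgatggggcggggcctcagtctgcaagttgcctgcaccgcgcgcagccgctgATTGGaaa

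No interferon response element of the form GAAANNGAA lay in this window on either strand.

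The constitutive catalytic subunits did not pass the test in either pair. Psmb5, the chymotrypsin-like subunit and the main target of bortezomib, had 13.03, 13.01 and 12.89 in B117H and 13.01, 12.78 and 12.92 in B117P, with 12.53, 12.64 and 12.45 in B140H and 12.67, 12.79 and 12.70 in B140P. Its changes were 0.07 in B117H and -0.18 in B140H (adjusted p = 0.896 and 0.43). Psmb7, the trypsin-like subunit, had 13.27, 12.78 and 12.61 in B117H, 13.11, 12.69 and 12.73 in B117P, 12.99, 12.68 and 12.53 in B140H, and 12.80, 12.45 and 12.38 in B140P. Array A was the highest of its line in all 4 lines, by 0.44 on average, which is more than the changes of 0.04 and 0.19. Psmb6, the caspase-like subunit, changed by 0.05 and 0.01, and its arrays are given with the parental lines, where it differed most. The non-catalytic beta subunits Psmb1, Psmb2, Psmb3 and Psmb4 had changes between -0.04 and 0.10 in B117H and between 0.01 and 0.14 in B140H, with none of 4 called.

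Of the 7 alpha-ring genes, 1 fell in each resistant line, and not the same one. Psma2 measured 12.52, 12.46 and 12.25 in B117H, against 13.19, 13.26 and 13.17 in B117P, with a wide gap between the groups. In B140H it had 13.07, 13.17 and 13.09, against 13.00, 13.02 and 13.01 in B140P. The fall in B117H was -0.79 ± 0.09 (SE, n = 3 each; 1.73-fold lower, adjusted p = 0.000112), and the change in B140H was 0.10 (adjusted p = 0.709). The change in B140H exceeded that in B117H by 0.89 (adjusted p = 0.000842), and this call and that of the fall held in all 24 and 25 alternatives tried.

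Psma2 also starts head to head with another gene, Mrpl32, which encodes a mitochondrial ribosomal protein and fell by 0.89 in B117H. The 204 bases between the starts are shown for that reason (RefSeq, GRCm38.p6, chr13:14613038-14613241, plus strand, ending at the base before the Psma2 start). The capitals mark a CCAAT box 54 to 50 bases before the start.

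Psma2: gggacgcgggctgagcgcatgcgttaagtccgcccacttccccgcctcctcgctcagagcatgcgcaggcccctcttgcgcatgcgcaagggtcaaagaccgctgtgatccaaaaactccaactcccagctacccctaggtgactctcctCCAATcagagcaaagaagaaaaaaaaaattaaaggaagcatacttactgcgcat

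Psma5 had 12.71, 12.73 and 12.67 in B140H, against 13.11, 13.08 and 13.06 in B140P, and 13.07, 12.91 and 12.94 in B117H, against 12.96, 13.00 and 12.99 in B117P. The B140 groups stood apart and the B117 groups overlapped. It fell by 0.38 in B140H (adjusted p = 0.0162), a call lost without any one of the B140P arrays (adjusted p between 0.0551 and 0.073) and when its 3 probe sets were averaged (adjusted p = 0.0558). Its other probe sets read -0.33 and -0.31 and were not called. Psma3 read 0.26 in B117H and -0.17 in B140H, neither of them called, while the difference of -0.43 was (adjusted p = 0.0378). That call was lost without any single array but C of B117H and B or C of B140H (adjusted p between 0.0527 and 0.104). Psma1, Psma4, Psma6 and Psma7 had changes between -0.26 and 0.24 in the 2 pairs, and none was called.

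None of the 17 subunits of the regulatory particle was called in either resistant line by limma, beside 9.41% and 6.56% of all genes. At an unadjusted p under 0.05 the counts were 2 of 17 in B117H and 3 of 17 in B140H. Over all 18193 genes these counts were 3633 and 3383, and among the 2252 genes above 11 they were 638 and 657. The 6 ATPases changed by between -0.09 and 0.25 in B117H and between -0.32 and 0.14 in B140H. The 11 non-ATPase subunits had a median change of -0.11 in B117H and 0.13 in B140H, with extremes at Psmd2, which measured -0.36 in B117H and 0.36 in B140H. Psmd2, the scaffold subunit that receives ubiquitin shuttles, had 12.11, 12.42 and 12.17 in B140H, against 11.71, 11.97 and 11.95 in B140P, and 12.08, 12.14 and 12.11 in B117H, against 12.60, 12.30 and 12.52 in B117P. The groups did not overlap in either pair and lay in opposite order. Neither change was called (adjusted p = 0.12 in B140H and 0.0931 in B117H), but their difference of 0.72 was (adjusted p = 0.0158). The difference was lost when all arrays of any one letter were left out (adjusted p between 0.0586 and 0.171). Psmc6, an ATPase, changed by -0.32 in B140H (adjusted p = 0.077), and with the array letter as a block this was called (adjusted p = 0.0227). The 19S assembly chaperones Psmd5, Psmd9 and Psmd10 had changes between -0.03 and 0.28 in the 2 pairs, with none called.

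Among the activators, no gene was called in a resistant line. Psme1, which encodes the interferon-inducible PA28 alpha subunit, had 12.42, 12.57 and 12.41 in B117H and 12.39, 12.33 and 12.50 in B117P, with 12.28, 12.61 and 12.53 in B140H and 12.70, 12.85 and 12.84 in B140P. The B117 groups overlapped and the B140H arrays lay below those of B140P, with changes of 0.06 and -0.32 (adjusted p = 0.941 and 0.129). Psme3, which encodes the nuclear PA28 gamma subunit, had deposited intensities of 1729, 1222 and 1025 in B117H, 1861, 1192 and 1278 in B117P, 1951, 1096 and 1348 in B140H, and 1702, 1363 and 1327 in B140P. On the log2 scale its array A exceeded the mean of B and C by 0.56 on average over the lines, against changes of -0.13 and -0.03. Psme4, which encodes PA200, a nuclear activator, measured 0.34 in B117H (adjusted p = 0.0886), or adjusted p = 0.039 with the array letter as a block, and one of its dimmer probe sets rose by 0.49 (adjusted p = 0.0337). In B140H it changed by 0.02. Psmf1 changed by 0.04 in B117H and 0.02 in B140H.

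Of the 4 chaperones that assemble the core particle, 2 fell in B117H, beside 4.68% of all genes called downward. In B140H 1 rose, beside 2.81% called upward. Whether calls gather in this role was not tested. Psmg4, which works with Psmg3 in forming the alpha ring, measured 9.83, 9.74 and 9.63 in B117H, against 10.86, 10.95 and 10.90 in B117P. In B140H it had 10.77, 11.08 and 10.65, against 10.58, 10.76 and 10.69 in B140P. The B117 groups were separated by more than 1 log2 unit and the B140 groups overlapped. It fell by 1.17 ± 0.11 in B117H (SE, n = 3 each; 2.25-fold lower, adjusted p = 3.21e-05), with 0.16 in B140H (adjusted p = 0.606). The difference was 1.33 (adjusted p = 0.000238). Its second probe set, dim at a mean of 4.92, also fell in B117H, by 0.52 (adjusted p = 0.048). The 250 bases before the Psmg4 start are given since this was the largest change of a member in either pair (RefSeq, GRCm38.p6, chr13:34162714-34162963, plus strand), and none of the 3 motifs searched lies in them.

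Psmg4: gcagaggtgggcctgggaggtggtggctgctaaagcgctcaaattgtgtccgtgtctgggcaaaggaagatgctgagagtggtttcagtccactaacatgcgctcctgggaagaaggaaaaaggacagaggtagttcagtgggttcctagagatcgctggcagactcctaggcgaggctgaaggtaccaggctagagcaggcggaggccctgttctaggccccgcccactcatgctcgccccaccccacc

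Psmg3 measured 11.84, 11.85 and 11.87 in B140H, against 11.10, 11.14 and 11.13 in B140P, and 10.97, 10.95 and 10.78 in B117H, against 11.15, 11.06 and 11.13 in B117P. The B140H arrays lay above every other array of the study. It rose by 0.73 ± 0.08 in B140H (SE, n = 3 each; 1.66-fold, adjusted p = 0.000206), with -0.21 in B117H (adjusted p = 0.187). The difference of 0.94 was called (adjusted p = 0.000301). Its second probe set, at a mean of 7.10, read 0.15 in B140H and was not called.

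Psmg1, which forms a dimer with Psmg2 that guides the alpha ring, had 11.66, 11.63 and 11.39 in B117H, against 12.30, 12.08 and 12.16 in B117P. The B140 arrays read 11.45, 11.48 and 11.25 in B140H and 11.61, 11.67 and 11.48 in B140P. The B117P arrays were thus above the arrays of the other 3 lines. Psmg1 fell by 0.62 ± 0.11 in B117H (SE, n = 3 each; adjusted p = 0.00305), a call lost when all C arrays were left out (adjusted p = 0.0746), and changed by -0.20 in B140H (adjusted p = 0.465). The difference of 0.42 was not called (adjusted p = 0.135), although it was with the array letter as a block (adjusted p = 0.0481). Psmg2 changed by -0.08 and 0.13.

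**Figure D2:**
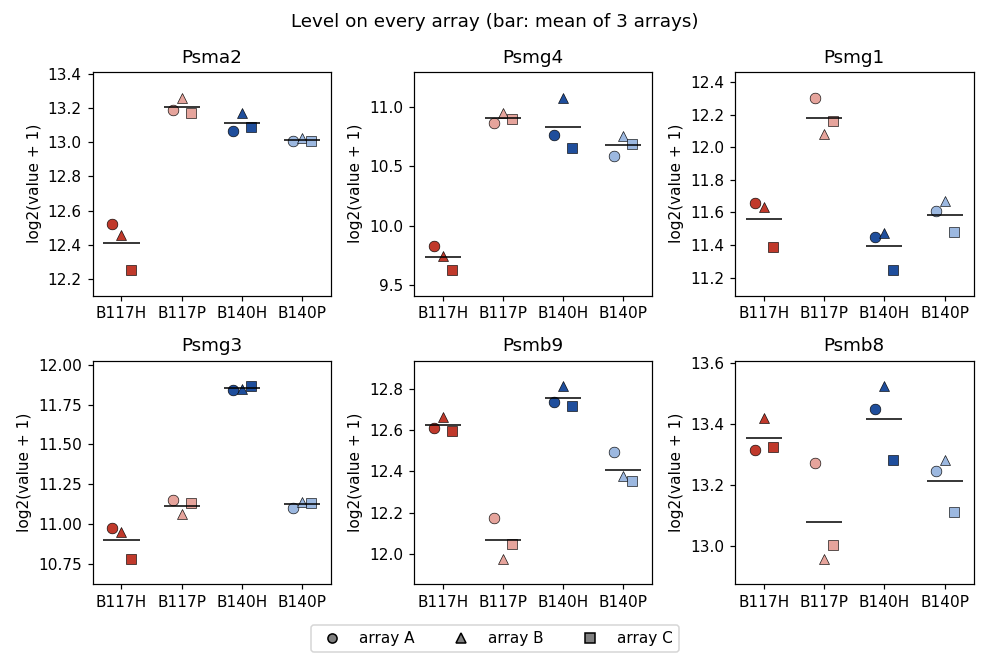
Level of 6 members on every array, in log2(value + 1), for B117H, B117P, B140H and B140P; symbols are the array letters and bars the means of 3 arrays. Psma2 and Psmg4 are low in B117H, Psmg3 is high in B140H, and Psmb9 is higher in both resistant lines than in both parental lines.

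In all, the difference between the changes of the 2 pairs was called for 6 members. The change was higher in B140H than in B117H for Psma2, Psmd2, Psmg3, Psmg4 and Psmc3ip, and lower for Psma3. Over all genes 10.4% were called, 4.91% upward and 5.51% downward, and 6 of 49 is 12.2%. Among genes above 11 the count was 4 of 39 proteasome genes, beside 350 of 2252. Psmc3ip had 10.07, 10.18 and 9.91 in B140H, against 9.54, 9.67 and 9.55 in B140P, and 9.66, 9.69 and 9.51 in B117H, against 9.92, 9.60 and 9.67 in B117P. Its B140 groups did not overlap and its B117 groups did. It rose by 0.47 in B140H (adjusted p = 0.0258) with a difference of 0.58 (adjusted p = 0.0374). The first call was lost without array A or B of B140H or any B140P array (adjusted p between 0.0554 and 0.104), and the second without any single array but B of B117P or C of B140H (adjusted p between 0.0557 and 0.0995).

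The genes beside the called members on their chromosomes were then read in the same fit. Over all genes, 4.73% were called upward and 4.68% downward in B117H, and 2.81% upward and 3.75% downward in B140H. Of the 10 measured genes on each side of Psma2, 11 of 20 fell in B117H, none rose, and their median change was -0.76, close to that of Psma2. Around Psmg3, all 20 neighbours had a positive change in B140H, 8 of them called, with a median of 0.47. Around Psmg4, 16 of 20 had a negative change in B117H, 4 of them called, and the median was -0.16. Psmg4 itself fell further than this median. Around Psmg1, 4 of 20 fell and 1 rose in B117H, with a median of -0.03. Around Psma5, 6 of 20 fell in B140H, with a median of -0.12. Around Psmb9, the 3 of 20 that rose in B117H were Tap1, Tap2 and H2-Ob, a class II gene that rose by 1.57, and the median was 0.05.

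**Figure D3:**
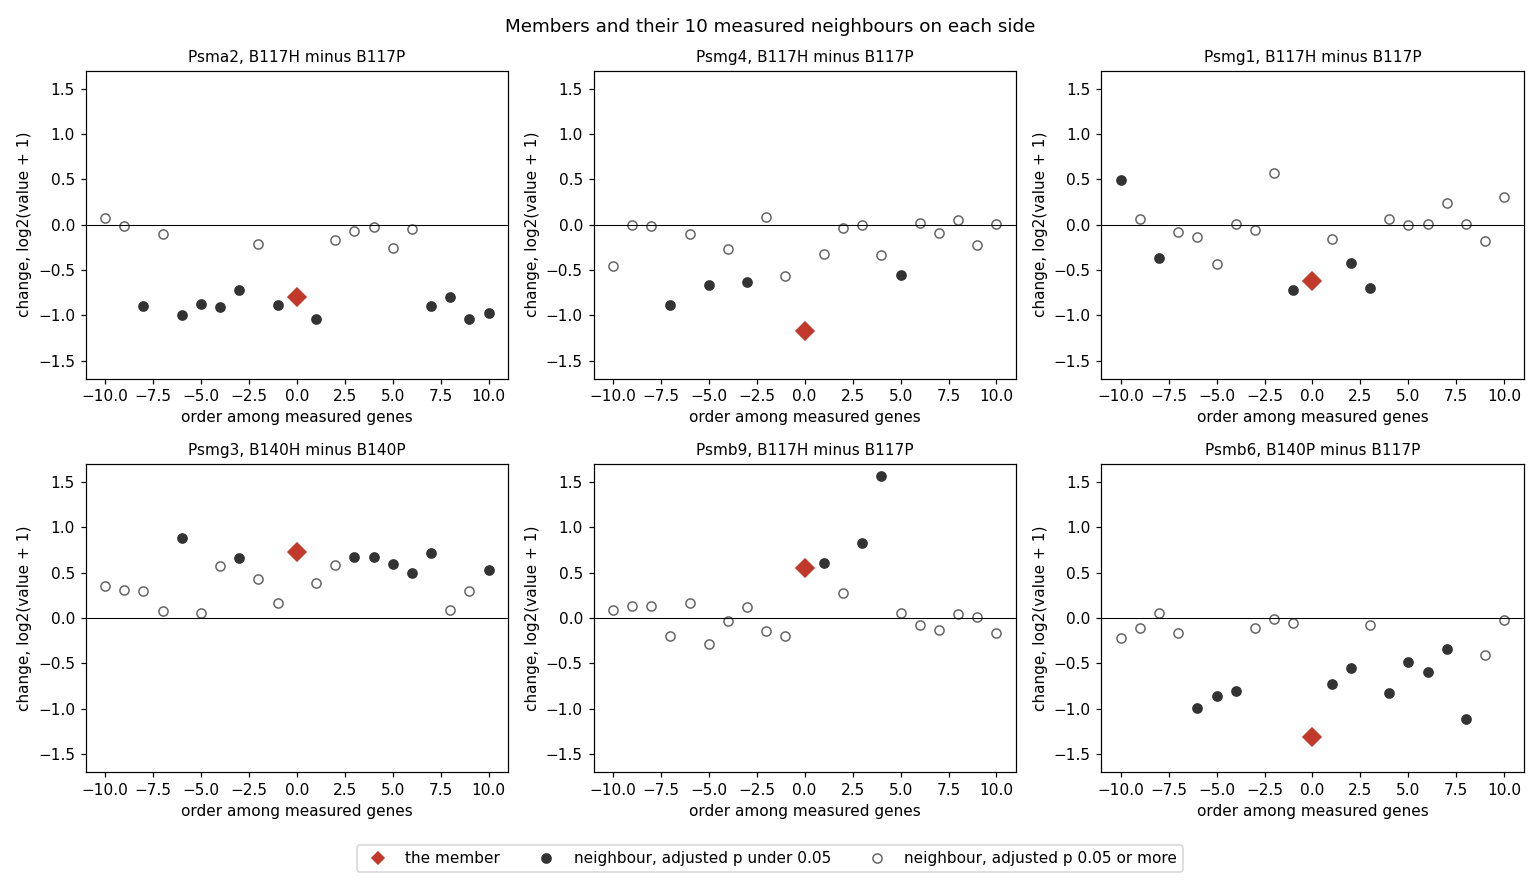
Change, in log2(value + 1), of 6 members (diamonds) and of the 10 measured genes on each side (circles, filled where called), in order along the chromosome. The neighbours of Psma2 (B117H) and Psmg3 (B140H) shift in the same direction as the member, whereas around Psmb9 the called neighbours are Tap1, Tap2 and H2-Ob.

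Whole chromosomes that carry several members were read in the same way. On chromosome 13, which carries Psma2 and Psmg4, 152 of 702 genes fell in B117H and 20 rose. On chromosome 16, which carries Psmg1 and Psmd2, 125 of 593 fell in B117H and 9 rose. On chromosome 5, which carries Psmg3, Psmc2 and Psmd9, 88 of 1122 rose in B140H and 14 fell. On chromosome 12, which carries Psma3, Psma6 and Psmc1, 143 of 622 genes rose and 4 fell in B117H, while 3 rose and 41 fell in B140H. The median change of these 3 members was 0.25 in B117H and -0.17 in B140H, beside 0.11 and -0.05 over the 622 genes. On chromosome 14, which carries Psmb5, Psmb11, Psmc6, Psmd6 and Psme1, 3 of 641 genes rose and 105 fell in B140H. The 5 members had a median of -0.18 in B140H, beside -0.03 over the 641 genes. On chromosome 3, which carries Psma5, Psmb4 and Psmd4, 62 of 913 genes rose and 103 fell in B140H, while 63 rose and 21 fell in B117H. On chromosome 5, 35 genes rose and 101 fell in B117H. Chromosomes 2, 7, 8, 11, 17 and 18, which also carry several members each, hold between 459 and 1443 measured genes. On them, between 18 and 58 genes rose and between 13 and 39 fell in B117H, and between 8 and 37 rose and between 6 and 36 fell in B140H. The shares over all genes are those given above for the neighbours. The part of these regional shifts in the members' changes was not tested.

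The 2 parental lines were then compared, which asks how far the members differ between the sensitive lines themselves. This comparison shares its arrays with both others. In B140P against B117P, 11 of 49 members were called, which is 22.4%, beside 23.8% of all genes (2178 higher and 2155 lower in B140P). Higher in B140P were Psmb9, Psmc1, Psmc6, Psme1 and Psme4, and lower were Psmb2, Psmb6, Psmd1, Psmd2, Psmg1 and Psme3ip1. Among genes above 11, 10 of 39 proteasome genes were called, which is 25.6%, beside 35.4% of all 2252. The fit has no term for the array letter, although arrays of the same letter tended to deviate together. With the letter as a block, 15 members (30.6%) and 5139 genes (28.2%) were called, and the members gained were Psmb7, Psmc2, Psmc4 and Psmd7. The median change of the members was -0.10 and their median absolute change 0.17, beside 0.00 and 0.14 over all genes.

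The largest of these differences was that of Psmb6. It had 10.96, 11.26 and 11.17 in B140P, against 12.53, 12.40 and 12.41 in B117P, and the resistant lines read 10.95, 11.32 and 11.17 in B140H and 12.47, 12.58 and 12.44 in B117H. The 6 arrays of the B140 lineage lay far below the 6 of the B117 lineage, and each resistant line kept the level of its parent. The difference between the parents was -1.32 ± 0.11 (SE, n = 3 each; 2.49-fold lower in B140P, adjusted p = 1.95e-06). Of its 20 neighbours on chromosome 11, 10 were called lower in B140P and none higher, with a median of -0.38. Psmb6 has a single probe set, and whether a sequence difference under its probes contributes was not tested. Psmb9, which takes its place in the immunoproteasome, was higher in B140P by 0.34 (adjusted p = 0.0133). This call was lost without array B of B117P or array A of B140P (adjusted p = 0.0611 to 0.0667). It was also lost when all arrays of any one letter were left out (adjusted p between 0.0726 and 0.137). The 250 bases before the Psmb6 start are shown because they end in a match to the antioxidant response element core, TGACNNNGC, in capitals (RefSeq, GRCm38.p6, chr11:70525107-70525356, plus strand).

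Psmb6: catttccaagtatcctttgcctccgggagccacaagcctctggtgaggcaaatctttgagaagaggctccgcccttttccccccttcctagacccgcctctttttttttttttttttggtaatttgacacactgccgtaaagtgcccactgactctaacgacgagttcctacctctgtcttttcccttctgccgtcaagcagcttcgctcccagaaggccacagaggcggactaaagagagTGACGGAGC

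Other differences between the parents ran in both directions. Psmc6 had 12.46, 12.37 and 12.27 in B140P, against 11.76, 11.63 and 11.64 in B117P, and was higher by 0.69 (adjusted p = 0.000122), as were both of its other probe sets. Psme4 had 11.39, 11.43 and 11.56 in B140P, against 10.62, 10.97 and 10.71 in B117P, and was higher by 0.69 (adjusted p = 0.000369). The groups did not overlap for either gene, and the B140H arrays of Psmc6, at 12.11, 12.07 and 11.95, lay between the parents. Psmd1, a large scaffold subunit of the 19S base, had 11.88, 11.96 and 11.93 in B140P, against 12.69, 12.43 and 12.51 in B117P, a difference of -0.62 (adjusted p = 0.0014). Psmd2, its partner in the base, was lower in B140P by 0.60 (adjusted p = 0.00214), and Psmg1 by 0.59 (adjusted p = 0.0014). The arrays of these 3 genes are separated between the parents too. The Psmd2 call was lost without the A or the C arrays (adjusted p = 0.0578 and 0.0514). Psmb2 had 12.13, 12.30 and 12.26 in B140P, against 12.83, 12.73 and 12.81 in B117P, with 12.28, 12.59 and 12.15 in B140H and 12.82, 12.95 and 12.72 in B117H. The arrays of the B140 lineage all lay below those of the B117 lineage. The difference between the parents was -0.56 (adjusted p = 0.00326), and it was not called without the A arrays (adjusted p = 0.082). Psme1, Psmc1 and Psme3ip1 differed by 0.39, 0.28 and -0.29 (adjusted p = 0.0183, 0.039 and 0.0413), and each of these calls was lost without some single arrays. For Psme1 these were array B of B117P and arrays B and C of B140P. For Psmc1 they were array A of B117H and every array of both parents. For Psme3ip1 they were arrays A and B of B117H, A and C of B117P, A of B140H and every B140P array. Psmb7, at -0.30, was not called (adjusted p = 0.378), but was with the array letter as a block (adjusted p = 0.021).

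**Figure D4:**
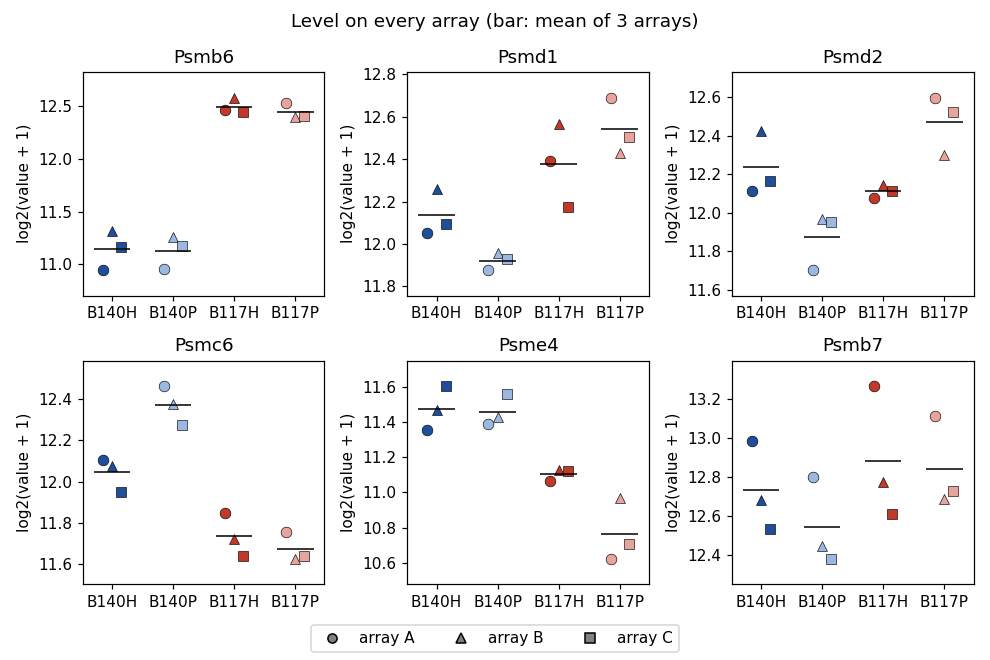
Level of 6 members on every array, in log2(value + 1), for B140H, B140P, B117H and B117P; symbols are the array letters and bars the means of 3 arrays. Psmb6 separates the lineages, Psmd1 and Psmd2 are lowest in B140P, Psmc6 is highest there, Psme4 is higher in both B140 lines than in both B117 lines, and Psmb7 is highest on array A of every line.

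Promoter windows of 250 bases before the start were found in RefSeq for 39 of the 47 proteasome genes and were searched on both strands for 3 motifs. A gene was counted when any of its windows held the motif. The antioxidant response element core, TGACNNNGC, bound by NRF1 and NRF2, lay in the windows of 5 of the 39 genes (12.8%), against 11.5% of 27025 genes. The interferon response element GAAANNGAA lay in those of 3 (7.69%), against 8.18%. The CCAAT box lay in those of 14 (35.9%), against 37.5%. Matches were counted for each motif alone, whether or not they overlapped another, and they describe letters in a window, not bound sites.

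Genes that regulate, serve or feed the proteasome were read from the lists chosen for this purpose, beside the 9.41% of all genes called in B117H and 6.56% in B140H. Of 8 measured transcription factors of proteasome genes and factors that process them, 1 rose in B117H, namely Ngly1, which activates NRF1 by removing its sugars (0.44, adjusted p = 0.0125), and none was called in B140H. Nfe2l1 and Nfe2l2, which encode NRF1 and NRF2, were not called in any comparison. Of 10 bound factors and subunits with other symbols, Uchl5, a deubiquitinase of the 19S particle, fell by 0.38 in B117H (adjusted p = 0.0147), and Zfand2a, an arsenite-inducible proteasome-binding protein that is also a neighbour of Psmg3, rose by 0.88 in B140H (adjusted p = 0.0105). Of 11 genes of substrate delivery, Ufd1 fell by 0.38 in B117H (adjusted p = 0.0249), and none was called in B140H. Uba6, a ubiquitin-activating enzyme, fell by 0.47 in B117H (adjusted p = 0.0098). The Ngly1 call was lost without array C of B117H or of B117P, the Uchl5 call without array B or C of B117H, and the Ufd1 call without any B117H array or array A or C of B117P. Leaving out any one letter lost the Uchl5 and Ufd1 calls (adjusted p up to 0.249 and 0.473). The Ngly1 and Uba6 calls were lost without the A or the C arrays (adjusted p up to 0.257 and 0.204). The Zfand2a call was lost without the B or the C arrays (adjusted p between 0.0804 and 0.174).

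Between the parents, 7 of 11 delivery genes were lower in B140P and none was higher. Of all 18193 genes, 2155 were lower and 2178 higher, and of the 2252 above 11, 411 were lower and 387 higher. Among the 7 were Ubqln2, a shuttle for ubiquitinated proteins (-0.80, adjusted p = 0.000698), Ufd1 (-0.67, adjusted p = 0.000174), Ube4b, which lengthens ubiquitin chains (-0.62, adjusted p = 0.000341), and Rad23b (-0.59). Of the others, a call was lost in 9 of 25 alternatives and another in 4. Pomp, the chaperone that completes the core particle, was higher in B140P by 0.88, and so was Ngly1, by 0.79. Keap1, which directs NRF2 to degradation, was higher in B140P by 0.46 (adjusted p = 0.00478), a call lost without the B or the C arrays (adjusted p = 0.0563 and 0.0532). Nfyc, a subunit of the CCAAT-binding factor NF-Y, was lower by 0.33 (adjusted p = 0.0462), a call lost in 12 of 25 alternatives.

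Of 11 interferon factors and peptide-loading genes, 2 rose and 1 fell in B117H, and 2 rose in B140H. Irf8, a myeloid interferon regulatory factor that can activate immunoproteasome genes, moved in opposite directions. It rose by 0.76 in B140H (adjusted p = 0.00201) and fell by 1.02 in B117H (adjusted p = 0.000134), with a difference of 1.78 (adjusted p = 3.47e-05). The call in B140H was lost without the A arrays (adjusted p = 0.0597). Psmb9 rose in both pairs, and a link between Irf8 and Psmb9 was not tested. The second gene that rose in B140H was Stat2, by 0.56 (adjusted p = 0.0305), a call lost without array A of B140H or array B or C of B140P. Irf1, Nlrc5 and B2m were not called in any comparison. B2m, the light chain of class I molecules, read 14.44, 14.44, 14.38 and 14.39 in B117H, B117P, B140H and B140P. Between the parents, Irf9, the DNA-binding part of the type I interferon signal complex, was lower in B140P by 1.09 (adjusted p = 0.00185), and Erap1, which trims peptides for class I, was lower by 0.48 (adjusted p = 0.00332). Both calls were lost without the C arrays (adjusted p = 0.0745 and 0.0566).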

How the data were processed

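RNA of 12 samples was measured on one-colour arrays. The deposited values are probe-set intensities on a linear scale (7.65 to 36675), summarised by the authors with RMA, per the submitters' processing notes. Its version is not given in the sources used here. The deposited intensities were put on the log2 scale with a pseudocount of 1. RMA compresses differences among dim probe sets, and no detection calls were used. Of 45101 probe sets, 64 controls were left out, 34945 of the rest have 1 symbol in the platform annotation, 932 several and 9160 none. The brightest one-symbol probe set, by the mean of all 12 arrays, stood for a gene. limma 3.58.1 in R 4.3.3 (lmFit, contrasts.fit, eBayes) was fitted to all 12 arrays with 1 coefficient per line, two-sided, and its code was tested on simulated data. The number of arrays limits the precision: the median gene's 95% interval is a factor of 1.20 to either side. Folds are on the log2(value + 1) scale.

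The members, lists, motifs and alternatives were chosen with earlier results of these data known. Values on every array are given, in the text or in a figure, for members called with a change of at least 0.5 in any comparison, for the catalytic subunits and for the PA28 genes. The arrays of Psma5, the neighbours and the uncalled list genes that are named were chosen after their values had been seen. From each other list, up to 4 called genes with the largest absolute changes in a comparison were named. Lists covered ubiquitin activation, substrate delivery, bound factors, transcription factors, interferon and peptide loading. Listed genes with no one-symbol probe set are not analysed here. Gene order and chromosomes came from RefSeq (GRCm38.p6), which matched 18032 of 18193 genes. The array letters were checked by the correlation of deviations from the line means for A, B and C: 0.555, 0.028 and 0.392 between B117H and B117P, 0.587, 0.360 and 0.560 between B140H and B140P, and 0.499, 0.131 and 0.414 between B140P and B117P. Arrays of letter A, and those of letter C, thus deviated together in each of these comparisons. For letter B the correlation was low wherever B117P was one of the lines, at -0.043 with B140H as well. Array B of B117H gave 0.367 with that of B140P and 0.349 with that of B140H. The letter effect was therefore not absent from the B117 lines, and only array B of B117P departed from it. The fit nevertheless holds no letter term, and the letter as a block is among the alternatives. Alternatives were the letter as a block, only the compared lines, quantile normalization again, median centring, a filter on dim probe sets, an intensity trend, other pseudocounts, averaged probe sets of each gene, no shared-sequence probe sets, and leaving out each array or letter.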

Additional observations from a re-analysis of the deposited data

Results flagged for a closer look

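The changes of the 2 pairs differed by limma's test of the difference itself, (B140H minus B140P) minus (B117H minus B117P), for 6 members and 3 other genes. The difference was 0.89 for Psma2, 0.94 for Psmg3 and 1.33 for Psmg4, and these calls held without any single array and without any letter. It was 0.72 for Psmd2, which was not called in either pair alone. It was -0.43 for Psma3 and 0.58 for Psmc3ip, both lost in many of the fits that left out 1 array. Among the other genes it was 1.78 for Irf8, which kept its call in all 24 alternatives. It was 1.03 for Zfand2a, lost without array A of B117H or array B or C of B117P (adjusted p between 0.0542 and 0.061). It was -0.60 for Ngly1, lost without any one letter (adjusted p between 0.0989 and 0.207).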

How the results depend on the processing

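Member calls were compared over 25 alternatives per comparison, or 24 for the difference. The count in B140H against B140P was 4 members with all arrays and 1 with only the arrays of the compared lines, Psmg3 in that fit. Fitting only those lines uses fewer arrays. Leaving out 1 array or 1 letter gave 2 to 5 members in B117H against B117P, 1 to 4 in B140H against B140P, 3 to 7 for the difference of changes, and 6 to 12 in B140P against B117P. In B140H against B140P the count was 1 without any one of the B140P arrays and 2 without array A or B of B140H. It was 2 in B117H against B117P without the C arrays. No called change of a named gene turned its sign. The letters as a replicate block gave 5 members called in B117H, 5 in B140H, 9 for the difference and 15 between the parents. Over all genes the block gave 1827 calls in B140H, against 1194 without it, and 2381 in B117H, against 1712. It gave 2739 for the difference, against 1896, and 5139 between the parents, against 4333. Psma2 and Psmg4 in B117H, Psmg3 in B140H, their differences, and Psmb6, Psmc6, Psmd1, Psme4 and Psmg1 between the parents kept their calls in every alternative tried. The limits are 1 line per group, 3 arrays per line of unstated origin, levels of RNA rather than protein or activity, and single probe sets for 22 of the 49 members.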

Other observations

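Array A was the highest of its line in all 4 lines for 6 members, and for 3 of them, Psme3, Psmb7 and Psma4, it exceeded the mean of arrays B and C by at least 0.25 on average (0.56, 0.44 and 0.28). Array A was the lowest of its line in all 4 lines for 4 other members, Psmc4, Psmc2, Psma6 and Psme4, with averages of -0.59, -0.21, -0.19 and -0.14 against the mean of B and C.

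Some members without a call on their brightest probe set had a call on a dimmer one. In B140P against B117P a second probe set of Psmc4, a 19S ATPase, was lower by 0.39 (adjusted p = 0.013), and one of Psmb3 was lower by 0.35 (adjusted p = 0.037). Both dimmer probe sets called for Psmf1 were higher in B140P, by 0.32 and 0.39. A second probe set of Psma6 gave a difference of changes of -0.54 (adjusted p = 0.016), beside -0.51 (adjusted p = 0.0942) on the brightest one.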
